A study of Mus musculus with 50 samples.

Results

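This comparison sets CD8+ T cells of knockout mice (KO) against those of wild-type mice (WT) after 2h of activation in culture. It uses all libraries labelled with that time, 5 of KO mice and 5 of WT mice, or 10 of the 50 libraries of the series. Each library is 1 mouse, and no mouse enters the comparison more than once. Both groups were 10-week-old animals on a background that the labels write as C567BL/6J, and their splenic CD8+ T cells were taken with magnetic anti-CD8a beads. Cells of both genotypes received anti-CD3e coated on the plate and anti-CD28 in solution, each at 2 ug/ml, for 2h. Polyadenylated RNA was sequenced as 50 nt reads, and levels are given as CPM, the counts of a gene scaled by the effective size of its library. The comparison was made with all 10 libraries and again with the 8 that remain without WT mice 1 and 4, whose profiles are described below. The choice to leave out these 2 mice came from earlier results of these data. The p values of the fit with 8 libraries do not account for that choice.

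An antibody to CD3e stands in for antigen at the T cell receptor, and an antibody to CD28 supplies the costimulatory signal. In the first hours the cells transcribe immediate early genes, NF-kB targets and cytokines before they grow or divide. Memory CD8 T cells differ from naive ones in carrying Cd44, Cxcr3 and Ly6c2 at higher levels and in making interferon gamma sooner. Interferons act through receptors and JAK kinases to raise a shared set of antiviral genes and a family of GTPases that attack vacuoles holding microbes.

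The libraries held between 17005929 and 26154928 counts in KO mice and between 9571625 and 27720267 counts in WT mice, the lowest being that of WT mouse 3. WT mice 1 and 4 stood apart from the other 8 libraries. The summed level of G2 and mitosis genes was 321 to 813 CPM in KO mice and 313 to 320 CPM in WT mice 2, 3 and 5, but 7587 and 6571 CPM in WT mice 1 and 4. Immature thymocyte genes, which include the recombination genes Rag1 and Rag2, summed to 314.8 to 504.3 CPM in KO mice and 315 to 378 CPM in WT mice 2, 3 and 5, but to 2509 and 2342 CPM in WT mice 1 and 4. The summed level of 12 genes that mark CD8 T cells, among them Cd8a and Cd3e, was 6359 to 7243 CPM in KO mice and 5282 to 8061 CPM in WT mice, so markers of the labelled cell type were present in both. The members did not move together, since Cd8a stood at 434 to 490 CPM in KO mice and 352 to 443 CPM in WT mice 2, 3 and 5, but at 133 and 179 CPM in WT mice 1 and 4. Thy1, another member, stood at 458 to 599 CPM in KO mice and 336 to 401 CPM in WT mice 2, 3 and 5, but at 1019.6 and 817 CPM in WT mice 1 and 4. The WT library of mouse 3 was the shallowest and had 57 genes at 0 that exceeded 1 CPM in every other library. Among KO libraries, that of mouse 5 had the highest sum of G2 and mitosis genes, 813 CPM against 321 to 375 CPM in KO mice 1 to 4. The summed B cell genes ranged over 3211 to 8221 CPM in KO mice and 2601 to 7447 CPM in WT mice 2, 3 and 5, and WT mice 1 and 4 held 564 and 1381 CPM. Myeloid genes summed to 44.7 to 108 CPM in KO mice and 28.5 to 54.6 CPM in WT mice, and dendritic cell genes to 333 to 631 CPM in KO mice and 117 to 487 CPM in WT mice. The part of these differences between libraries in the results that follow was not tested. In RNA from many cells, fewer cells of a type and less RNA per cell cannot be told apart.

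**Figure D1:**
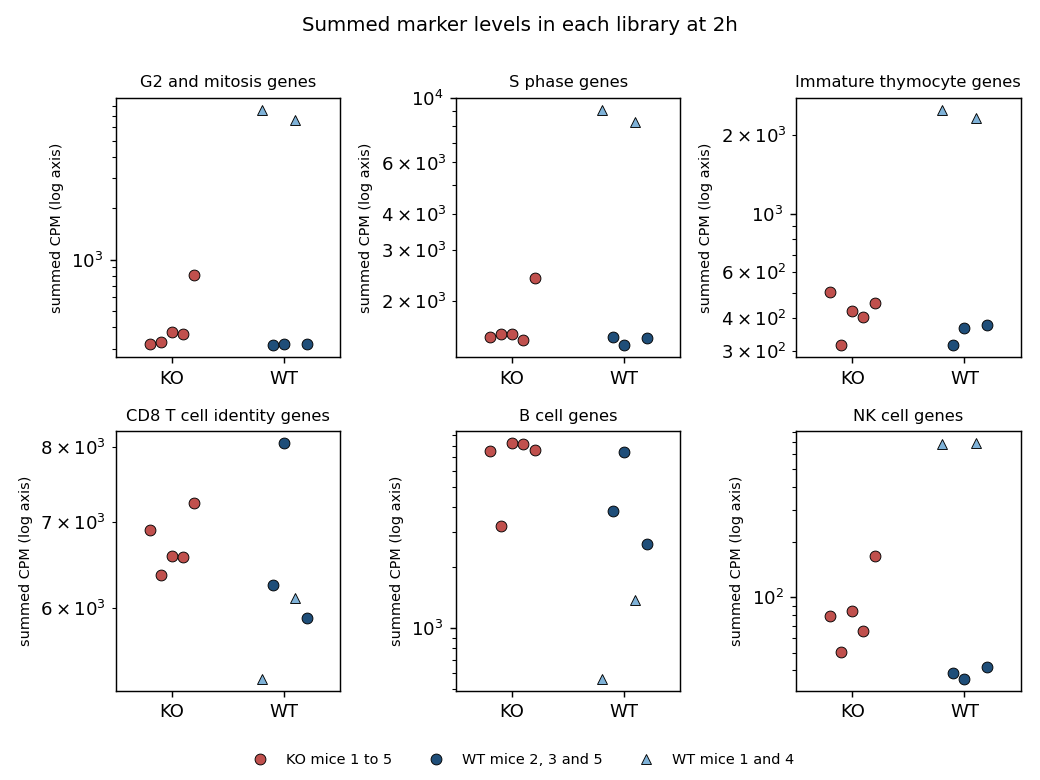
Summed CPM of 6 marker lists in each library at 2h, on log axes, with 1 point per mouse (red circles KO, dark blue circles WT mice 2, 3 and 5, light blue triangles WT mice 1 and 4). WT mice 1 and 4 lie far above all other libraries for G2 and mitosis, S phase, immature thymocyte and NK cell genes, and below all of them for B cell genes.

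With all 10 libraries, edgeR's quasi-likelihood test called 2 of 11908 genes at a Benjamini-Hochberg adjusted p under 0.05, both higher in KO cells (0.0168% of genes) and none lower (0%). At an unadjusted p under 0.05 there were 850 genes higher in KO cells, or 7.14%, and 1663 lower, or 14.0%. Without WT mice 1 and 4 the test called 19 of 12107 genes, 15 higher in KO cells (0.124%) and 4 lower (0.0330%), and these included both genes called with all libraries. At an unadjusted p under 0.05 that fit had 1106 genes higher in KO cells, or 9.14%, and 770 lower, or 6.36%. Scaled by library totals alone, the calls were 1 higher and 1 lower with all libraries, and 7 higher and 4 lower without WT mice 1 and 4. The estimated common dispersion, a measure of the spread between libraries of 1 genotype, was 0.215 with WT mice 1 and 4 and 0.0680 without them. The number of calls depended on the tool. With all 10 libraries DESeq2 called 1253 of 13361 genes, 475 higher in KO cells and 778 lower. Without WT mice 1 and 4 it called 620 of 12789 genes, 432 higher in KO cells and 188 lower. Without WT mice 1, 3 and 4 the quasi-likelihood test called 5 genes, of which Igkv3-7, H2-Q6 and H2-Q7 (higher in KO cells) and Ttll3 (lower) were among the 19. With all 10 libraries, leaving out 1 library at a time left 0 calls without KO mouse 1, 3, 4 or 5 or WT mouse 2, 3 or 5, 1 without KO mouse 2 or WT mouse 4, and 3 without WT mouse 1. Starting from the 8 libraries, it left 1 call without KO mouse 3 or 4, 2 without KO mouse 1 or WT mouse 2 or 5, 5 without WT mouse 3, 7 without KO mouse 5 and 27 without KO mouse 2, of which 12 were among the 19.

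Because few genes passed the adjusted test, gene groups are also described by the genes whose KO and WT libraries did not overlap. Over all tested genes, each of the 5 KO libraries exceeded each of the 5 WT libraries for 467 genes, or 3.92%, and lay below each of them for 297, or 2.49%. Against WT mice 2, 3 and 5 alone, the KO libraries lay above for 876 genes, or 7.24%, and below for 731, or 6.04%. The median log2 difference over all tested genes, KO over WT, was -0.05 with all libraries and 0.02 without WT mice 1 and 4.

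Jaml, a junctional adhesion molecule of leukocytes, was one of the genes called with all libraries. It stood at 81.9, 45.3, 61.3, 60.1 and 71.6 CPM in KO mice 1 to 5, against 27.4, 20.8, 21.5, 25.4 and 21.3 CPM in WT mice 1 to 5. WT mice 1 and 4 were the highest of the WT mice for this gene, and the lowest KO library was well above the highest WT library. The log2 difference was 1.46 (SE 0.17, adjusted p = 0.0311) with all libraries and 1.60 (SE 0.18, adjusted p = 0.0217) without WT mice 1 and 4. Without WT mouse 3 as well, it was 1.61 with an adjusted p of 0.0572.

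Igkv3-7, a variable segment of the immunoglobulin kappa light chain, was the other. It stood at 3.69, 5.07, 4.33, 5.05 and 5.59 CPM in KO mice 1 to 5, and at 0, 0, 0, 0.138 and 0.0381 CPM in WT mice 1 to 5. Reads of near-identical kappa segments may be split between genes, so the value of this single segment is uncertain. The fitted log2 difference of 6.70 (SE 0.76, adjusted p = 0.0311) depends on the small prior count that replaces the zeros. The B cell list did not separate the genotypes in this way. Ighm, the heavy chain of IgM, stood at 1750.0 to 4446 CPM in KO mice and 337 to 2035 CPM in WT mice, and those ranges overlapped.

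The other genes called without WT mice 1 and 4 and higher in KO cells included several surface molecules. Cd44, the hyaluronan receptor used as a marker of antigen-experienced T cells, stood at 224, 122, 249, 165 and 212 CPM in KO mice 1 to 5, against 11.9, 83.1, 64.1, 34.6 and 71.7 CPM in WT mice 1 to 5. Nt5e, which encodes CD73, the ectoenzyme that makes adenosine from AMP, stood at 120, 53.2, 96.7, 75.7 and 83.0 CPM in KO mice 1 to 5, against 1.71, 21.997, 15.4, 7.02 and 23.8 CPM in WT mice 1 to 5. For both genes every KO library exceeded every WT library, and WT mice 1 and 4 were the lowest. The log2 difference without those 2 mice was 1.42 (SE 0.22, adjusted p = 0.0482) for Cd44 and 2.07 (SE 0.26, adjusted p = 0.0247) for Nt5e. With all 10 libraries the same genes had adjusted p values of 0.185 and 0.167. Lilr4b, a receptor of the leukocyte immunoglobulin-like family, averaged 101 ± 39.2 CPM in KO mice and 22.9 ± 4.21 CPM in WT mice 2, 3 and 5, a log2 difference of 2.14. Here and below, ± is the SD over 5 KO and 3 WT mice. Ms4a4c, a membrane protein of the Ms4a family, averaged 36.3 ± 9.78 CPM in KO mice and 12.2 ± 2.10 CPM in these WT mice, a log2 difference of 1.57. With all 10 libraries the log2 differences of Lilr4b and Ms4a4c were 2.62 and 2.15 (adjusted p = 0.158 and 0.191 by edgeR).

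Among the intracellular products, Capn2, the large subunit of the calcium-dependent protease m-calpain, stood at 87.3, 67.8, 76.5, 71.3 and 90.6 CPM in KO mice 1 to 5, against 48.2, 35.6, 36.2, 30.8 and 38.9 CPM in WT mice 1 to 5. The groups did not overlap. Its log2 difference was 1.10 (SE 0.13, adjusted p = 0.0217) without WT mice 1 and 4 and 1.05 (SE 0.15, adjusted p = 0.0543) with them. Map3k8, a kinase upstream of ERK also known as Tpl2, averaged 52.5 ± 9.35 CPM in KO mice and 24.7 ± 4.16 CPM in WT mice 2, 3 and 5, a log2 difference of 1.09. With all 10 libraries it was 1.56 (adjusted p = 0.191 by edgeR). Chst11, a sulfotransferase that acts on chondroitin, stood at 34.2 to 74.2 CPM in KO mice and 11.8 to 14.2 CPM in WT mice 2, 3 and 5, but at 56.5 and 35.5 CPM in WT mice 1 and 4. It was therefore called without those 2 libraries, with a log2 difference of 1.81, and had an adjusted p of 0.343 with them. H2-Q6 and H2-Q7, non-classical class I genes of the Qa-2 group whose sequences are near identical, averaged 1406 ± 128 and 1014 ± 121 CPM in KO mice and 643 ± 144 and 485 ± 64.2 CPM in WT mice 2, 3 and 5. WT mice 1 and 4 held only 13.3 and 120 CPM of H2-Q6. With all 10 libraries the log2 differences of H2-Q6 and H2-Q7 were 1.77 and 1.70 (adjusted p = 0.224 and 0.229 by edgeR). Arrdc4, an arrestin-like adaptor, averaged 7.22 ± 1.25 CPM in KO mice and 2.39 ± 0.259 CPM in WT mice 2, 3 and 5. Npc1l1, a cholesterol transporter, averaged 2.65 ± 0.545 CPM in KO mice and 0.378 ± 0.172 CPM in these WT mice. Ermp1, a metallopeptidase of the endoplasmic reticulum, averaged 69.3 ± 3.99 CPM in KO mice and 40.9 ± 5.87 CPM in these WT mice. For these 3 genes too, every KO library exceeded every WT library, those of WT mice 1 and 4 included. Their adjusted p values by edgeR with all 10 libraries were 0.191 for Arrdc4, 0.0543 for Npc1l1 and 0.191 for Ermp1.

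Wwp2, a ubiquitin ligase of the NEDD4 family, was the called gene with lower levels in every KO library than in any of the 5 WT libraries. It stood at 49.1, 57.7, 56.6, 57.1 and 41.9 CPM in KO mice 1 to 5, against 94.7, 99.6, 111, 88.9 and 89.5 CPM in WT mice 1 to 5. The log2 difference was -0.92 (SE 0.13, adjusted p = 0.0432) without WT mice 1 and 4 and -0.88 (SE 0.13, adjusted p = 0.0543) with them. Ttll3, a tubulin glycylase, averaged 19.7 ± 1.56 CPM in KO mice and 39.6 ± 4.06 CPM in WT mice 2, 3 and 5. Pde1b, a phosphodiesterase activated by calmodulin, averaged 23.01 ± 3.48 CPM in KO mice and 46.0 ± 3.38 CPM in these WT mice. Pygm, the muscle form of glycogen phosphorylase, averaged 8.48 ± 0.401 CPM in KO mice and 16.7 ± 1.95 CPM in these WT mice. WT mice 1 and 4 lay with or below the KO libraries for these last genes, at 14.9 and 20.4 CPM of Ttll3, 12.3 and 19.4 CPM of Pde1b and 5.48 and 7.77 CPM of Pygm. With all 10 libraries the log2 differences of Ttll3, Pde1b and Pygm were -0.64, -0.56 and -0.58 (adjusted p = 0.225, 0.360 and 0.314 by edgeR).

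**Figure D2:**
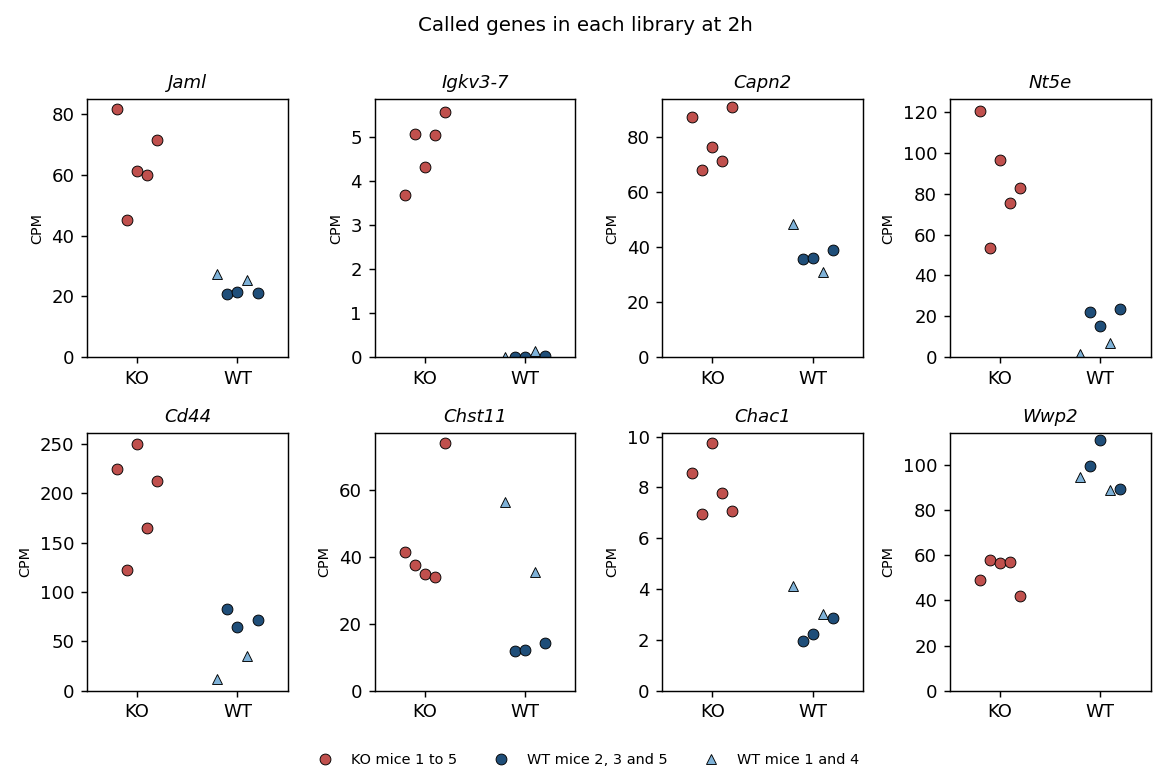
CPM of 8 called genes in each library at 2h, with 1 point per mouse and axes that start at 0 (red circles KO, dark blue circles WT mice 2, 3 and 5, light blue triangles WT mice 1 and 4). The KO points of Jaml, Igkv3-7, Capn2, Nt5e, Cd44 and Chac1 all lie above the WT points, those of Wwp2 all lie below, and for Chst11 WT mice 1 and 4 lie among the KO points.

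Interferon-stimulated genes had, of the 22 lists plotted, the largest share of members whose level was higher in every KO library than in any WT library. Of 43 tested genes of this list, 23, or 53.5%, had all KO libraries above all 5 WT libraries, and 24 had them above WT mice 2, 3 and 5, while 0 lay below in either comparison. No member passed the adjusted test by edgeR, and at an unadjusted p under 0.05 there were 28 higher and 0 lower with all libraries and 26 higher and 0 lower without WT mice 1 and 4. DESeq2 called 18 and 17 members in these comparisons, all higher in KO cells. The median log2 difference of the list was 0.90 with all libraries and 0.68 without WT mice 1 and 4. The summed level was 2769 to 3964 CPM in KO mice, 1852 to 2372 CPM in WT mice 2, 3 and 5, and 1021 and 1278 CPM in WT mice 1 and 4.

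Usp18, the protease that removes ISG15 and restrains signalling by the type I interferon receptor, stood at 48.6, 23.3, 42.8, 26.2 and 54.4 CPM in KO mice 1 to 5, against 7.08, 8.05, 5.00, 9.84 and 12.5 CPM in WT mice 1 to 5. Ifi44, an interferon-induced cytoplasmic protein, stood at 2.50, 1.47, 2.55, 1.46 and 3.10 CPM in KO mice 1 to 5, against 0.197, 0.283, 0, 0.241 and 0.229 CPM in WT mice 1 to 5. In both genes WT mice 1 and 4 lay within the range of the other WT mice, and every KO library lay above it. The log2 difference of Usp18 was 2.20 (SE 0.32, adjusted p = 0.0563) with all libraries and 2.18 (SE 0.36, adjusted p = 0.0585) without WT mice 1 and 4. That of Ifi44 was 3.41 (SE 0.52, adjusted p = 0.0713) with all libraries and 3.46 (SE 0.62, adjusted p = 0.0618) without them. Ifit3, which binds other IFIT proteins on viral RNA, averaged 18.4 ± 8.79 CPM in KO mice and 4.52 ± 1.10 CPM in WT mice 2, 3 and 5. Ifit3 and its near-copy Ifit3b may share reads. Ifi27l2a, a small interferon-induced protein, stood at 118 to 175 CPM in KO mice and 72.5 to 93.3 CPM in WT mice 2, 3 and 5, but at 2.69 and 19.5 CPM in WT mice 1 and 4.

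The interferon-inducible GTPases defend cells against vacuolar pathogens. Of 16 tested members, 8, or 50%, had all KO libraries above all WT libraries, with or without WT mice 1 and 4, and 0 lay below. All 16 had a positive log2 difference in both fits, with medians of 1.24 and 0.81, and none passed the adjusted test by edgeR. Unadjusted p values under 0.05 were found for 14 with all libraries and 13 without WT mice 1 and 4, all higher in KO cells, and DESeq2 called 9 and 7. Iigp1, an immunity-related GTPase recruited to vacuoles of parasites, stood at 129, 57.1, 51.9, 30.7 and 108 CPM in KO mice 1 to 5, against 6.23, 11.8, 12.0, 7.57 and 11.1 CPM in WT mice 1 to 5. The KO libraries varied among themselves by more than the WT libraries, with KO mice 1 and 5 the highest. Its log2 difference was 2.96 (SE 0.40, adjusted p = 0.0543) with all libraries and 2.71 (SE 0.46, adjusted p = 0.0599) without WT mice 1 and 4. Gbp5, a guanylate-binding protein that promotes inflammasome assembly, stood at 139, 72.4, 69.1, 66.3 and 143 CPM in KO mice 1 to 5, against 30.9, 32.1, 19.1, 32.2 and 31.2 CPM in WT mice 1 to 5. KO mice 1 and 5 were again the highest for this gene. Gbp2 averaged 298 ± 109 CPM in KO mice and 121 ± 16.9 CPM in WT mice 2, 3 and 5, and Gbp3 averaged 147 ± 49.6 CPM in KO mice and 68.9 ± 8.50 CPM in these WT mice.

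The promoters of 2 of these genes, Ifit3 and Gbp5, are shown because they hold the interferon-stimulated response element to which IRF factors bind. Each runs from 250 bases before the annotated start to 50 bases after it, is written 5′ to 3′ on the strand of the gene and comes from RefSeq on build GRCm38.p6. The capitals mark matches to GAAANNGAAA on either strand, which read TTTCNNTTTC on the opposite one. Ifit3 (chr19:34583279-34583578, plus strand) holds 2 matches and Gbp5 (chr3:142496684-142496983, plus strand) holds 1.
Ifit3: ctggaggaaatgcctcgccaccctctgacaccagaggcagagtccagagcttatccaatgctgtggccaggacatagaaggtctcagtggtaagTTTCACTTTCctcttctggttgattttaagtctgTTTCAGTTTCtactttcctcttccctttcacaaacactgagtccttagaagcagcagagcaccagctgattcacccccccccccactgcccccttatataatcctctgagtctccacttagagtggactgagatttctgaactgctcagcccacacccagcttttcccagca
Gbp5: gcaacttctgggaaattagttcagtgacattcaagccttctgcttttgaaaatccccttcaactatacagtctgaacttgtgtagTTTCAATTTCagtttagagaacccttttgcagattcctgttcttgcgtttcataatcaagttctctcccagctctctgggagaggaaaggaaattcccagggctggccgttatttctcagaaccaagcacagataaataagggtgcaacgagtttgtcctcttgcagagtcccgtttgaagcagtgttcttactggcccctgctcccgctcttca
Of the interferon-stimulated genes tested, 32 of 43 had a promoter in the table and 17 of them, or 53.1%, held a match. Of the GTPases, 10 of 16 had one and 9 held a match. Of 9437 genes tested at 2h that had a promoter of this length, 359, or 3.8%, held a match. Among all 32851 promoters of this length, counted singly and whether or not the gene was tested, 1131, or 3.44%, held a match. The window of Ifi44 held no match to these letters.

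Genes that sense interferon encode its receptors, their kinases and their inhibitors. Of 14 tested members, 3, or 21.4%, had all KO libraries above all WT libraries in both comparisons, and the list medians were 0.55 with all libraries and 0.26 without WT mice 1 and 4. Jak2, the kinase bound to the interferon gamma receptor, stood at 345, 319, 285, 293 and 279 CPM in KO mice 1 to 5, against 160, 196, 172, 171 and 234 CPM in WT mice 1 to 5. Ifngr1, the ligand-binding chain of that receptor, averaged 1156 ± 125 CPM in KO mice and 782 ± 56.8 CPM in WT mice 2, 3 and 5. Socs3, a feedback inhibitor of JAK kinases, averaged 219 ± 36.0 CPM in KO mice and 136 ± 8.59 CPM in these WT mice. None of these genes passed the adjusted test by edgeR in either fit, whereas DESeq2 called 3 members of the list in each, all higher in KO cells. Of the 19 class I antigen processing genes, 2, or 10.5%, did not overlap, both higher in KO cells.

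Genes of memory and effector CD8 T cells formed another group with many members that did not overlap. Of 31 tested members, 13, or 41.9%, had all KO libraries above all WT libraries and 0 below. Without WT mice 1 and 4 these numbers were 15 above and 1 below. Cd44 passed the adjusted test by edgeR in the fit without those mice, and DESeq2 called 12 members higher with all libraries and 16 higher and 1 lower without them. The median log2 difference was 1.17 with all libraries and 0.74 without WT mice 1 and 4. Ly6c2, a GPI-anchored surface protein of memory cells that can share reads with its near-copy Ly6c1, stood at 219, 71.5, 172, 127 and 314 CPM in KO mice 1 to 5, against 6.49, 30.5, 37.8, 19.2 and 37.7 CPM in WT mice 1 to 5. Cxcr3, the receptor for CXCL9 and CXCL10, stood at 150, 72.0, 187, 93.9 and 208 CPM in KO mice 1 to 5, against 2.82, 38.0, 34.7, 16.9 and 42.5 CPM in WT mice 1 to 5. For both genes the KO library of mouse 2 was the lowest of its group and WT mouse 1 the lowest of all. The log2 difference of Ly6c2 was 2.36 (SE 0.43, adjusted p = 0.0654) without WT mice 1 and 4 and 2.78 (SE 0.52, adjusted p = 0.109) with them. That of Cxcr3 was 1.89 (SE 0.33, adjusted p = 0.0599) without those mice and 2.401 (SE 0.60, adjusted p = 0.189) with them.

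Ly6a, also known as Sca-1, averaged 108 ± 34.7 CPM in KO mice and 31.8 ± 10.4 CPM in WT mice 2, 3 and 5. Eomes, a T-box factor of memory and NK cells, averaged 66.4 ± 35.5 CPM in KO mice and 15.04 ± 7.74 CPM in these WT mice. Neither passed the adjusted test by edgeR in either fit, DESeq2 called both in both fits, and both had all KO libraries above all WT libraries. Id2 and Id3 encode inhibitors of E proteins that mark effector and naive or memory precursor states. Id2 stood at 39.7 to 51.1 CPM in KO mice and 18.8 to 30.5 CPM in WT mice 2, 3 and 5, but at 133 and 149 CPM in WT mice 1 and 4, so its log2 difference was -0.68 with all libraries and 0.87 without those mice. Id3 stood at 37.0 to 86.2 CPM in KO mice and 86.9 to 147 CPM in all WT mice, with a log2 difference of -1.02 with all libraries and -0.89 without WT mice 1 and 4. NK cell genes, some of which memory T cells also carry, summed to 50.1 to 168 CPM in KO mice, 35.9 to 41.8 CPM in WT mice 2, 3 and 5 and 688 and 692 CPM in WT mice 1 and 4, and their part in the difference of this list was not tested. The 23 genes of naive and quiescent T cells, such as Klf2 and Ccr7, had 0 members above and 1 below with all libraries, and 0 above and 2 below without WT mice 1 and 4, near the share of all genes.

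Cytotoxic granules carry granzymes and perforin into target cells. Gzmm, granzyme M, stood at 67.6, 8.63, 20.5, 28.2 and 27.0 CPM in KO mice 1 to 5, against 1.08, 3.40, 6.81, 1.89 and 4.61 CPM in WT mice 1 to 5. The lowest KO library exceeded the highest WT library by little, and the adjusted p was 0.136 with all libraries and 0.113 without WT mice 1 and 4. Prf1, perforin, ran the other way against WT mice 2, 3 and 5, with 31.3 to 54.1 CPM in KO mice and 63.6 to 72.9 CPM in those WT mice, and with 3.05 and 14.3 CPM in WT mice 1 and 4. Serpinb9, the inhibitor of granzyme B, stood at 33.0 to 93.0 CPM in KO mice and 8.69 to 24.0 CPM in all WT mice. Of the 15 tested cytotoxic granule genes, 2, or 13.3%, had all KO libraries above all WT libraries and 0 below, and against WT mice 2, 3 and 5 alone 3 lay above and 1 below.

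Of 20 tested cytokine and chemokine genes, 5, or 25%, had all KO libraries above all WT libraries and 0 below, and 9 were higher and 0 lower at an unadjusted p under 0.05. In the fit without WT mice 1 and 4, 6 of 21 lay above and 1 below, with 11 higher and 2 lower at an unadjusted p under 0.05. The median log2 difference was 1.42 with all libraries and 1.12 without WT mice 1 and 4. Ifng, interferon gamma, stood at 197, 52.2, 64.0, 119 and 128 CPM in KO mice 1 to 5, against 4.62, 42.9, 25.9, 12.6 and 28.3 CPM in WT mice 1 to 5. The gap between the lowest KO and the highest WT library was small beside the spread of the KO libraries. Its log2 difference was 2.29 (SE 0.56, adjusted p = 0.189) with all libraries and 1.79 (SE 0.43, adjusted p = 0.115) without WT mice 1 and 4. Il2, the T cell growth factor, stood at 3.90 to 7.61 CPM in KO mice and 0.0984 to 3.51 CPM in WT mice. Tnfsf8, the CD30 ligand, stood at 24.7 to 103 CPM in KO mice and 4.98 to 18.5 CPM in WT mice. Il3 was at 15.1 CPM in KO mouse 5 and at 0.694 to 2.38 CPM in the other KO mice, against 0 to 0.283 CPM in WT mice, so 1 library carried most of its mean.

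Immediate early genes, the first to be transcribed after receptor signalling, had list medians of opposite sign in the fits. Of 35 immediate early genes, 5, or 14.3%, had all KO libraries above all WT libraries, and the list median was 0.29 with all libraries and -0.10 without WT mice 1 and 4. A positive log2 difference was found for 32 of the 35 with all libraries and for 13 without WT mice 1 and 4. The summed level was 11343 to 16873 CPM in KO mice, 12941 to 21938 CPM in WT mice 2, 3 and 5, and 1946 and 4362 CPM in WT mice 1 and 4. Bhlhe40, a repressor needed for cytokine production by T cells, stood at 93.8, 93.0, 65.6, 119 and 153 CPM in KO mice 1 to 5, against 3.15, 33.5, 49.3, 13.9 and 54.2 CPM in WT mice 1 to 5. Jun, a subunit of AP-1, averaged 62.5 ± 24.1 CPM in KO mice and 29.0 ± 6.54 CPM in WT mice 2, 3 and 5, and Klf4, a factor that restrains T cell proliferation, averaged 10.2 ± 4.35 CPM in KO mice and 3.99 ± 1.11 CPM in these WT mice. Tnfaip3, the NF-kB inhibitor A20, averaged 974 ± 94.3 CPM in KO mice and 604 ± 128 CPM in these WT mice. These genes had adjusted p values between 0.0893 and 0.199 over both fits. Tnfaip3 belongs to a separate list of 20 NF-kB feedback genes. That list had medians of 0.55 with all libraries and 0.04 without WT mice 1 and 4, with 20 and 12 members of positive log2 difference. The 22 genes of proximal receptor signalling had medians of 0.25 with all libraries and -0.15 without WT mice 1 and 4.

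**Figure D3:**
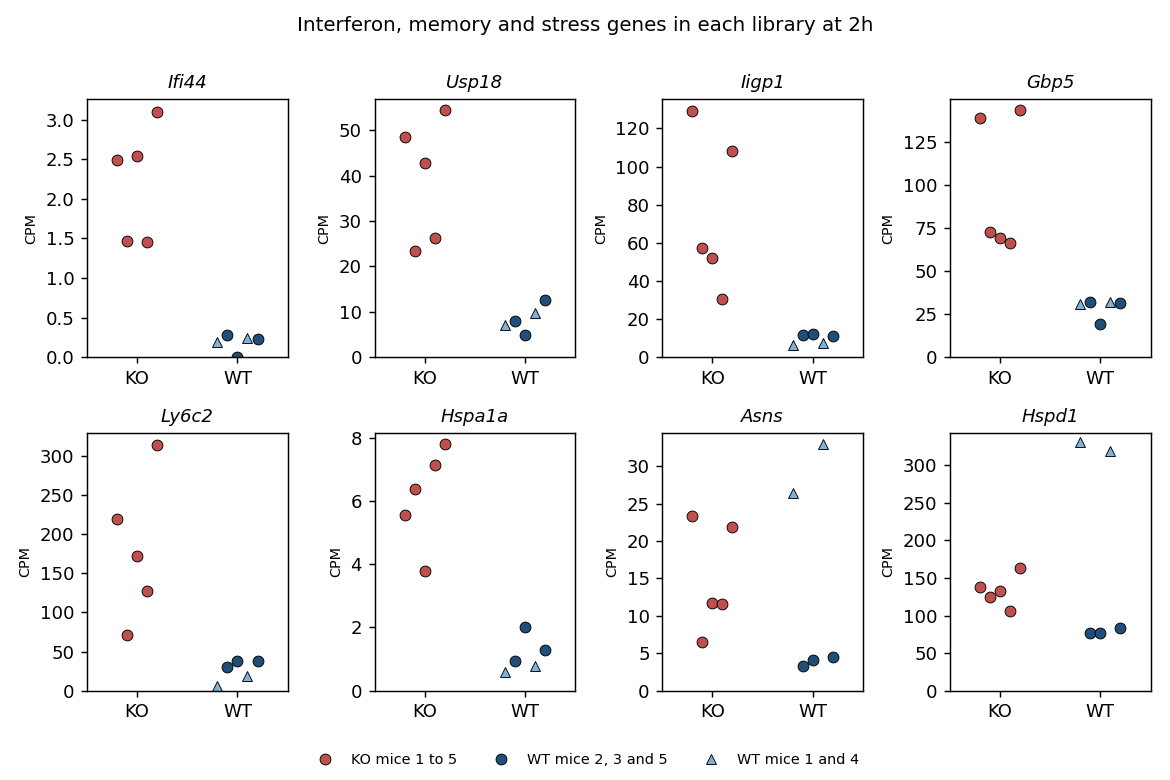
CPM of 8 interferon, memory and stress genes in each library at 2h, with 1 point per mouse and axes that start at 0 (red circles KO, dark blue circles WT mice 2, 3 and 5, light blue triangles WT mice 1 and 4). The KO points of Ifi44, Usp18, Iigp1, Gbp5, Ly6c2 and Hspa1a lie above all WT points, whereas for Asns and Hspd1 WT mice 1 and 4 lie above all KO points.

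Heat shock chaperones, which refold damaged proteins under the factor HSF1, were a further group. Of 19 tested members, 5, or 26.3%, had all KO libraries above all WT libraries, and 8 had them above WT mice 2, 3 and 5, with 0 below in either comparison. No member passed the adjusted test by edgeR, 7 and 9 were higher at an unadjusted p under 0.05 and 0 lower, and DESeq2 called 5 and 8. Hspa1a, an inducible HSP70, stood at 5.55, 6.37, 3.80, 7.12 and 7.80 CPM in KO mice 1 to 5, against 0.590, 0.930, 2.02, 0.791 and 1.30 CPM in WT mice 1 to 5. Its near-copy Hspa1b, which may share its reads, stood at 3.89 to 9.02 CPM in KO mice and 0.757 to 2.23 CPM in WT mice. WT mouse 3 was the highest WT library for both genes. The log2 difference of Hspa1a was 2.47 (SE 0.39, adjusted p = 0.0741) with all libraries and 2.16 (SE 0.36, adjusted p = 0.0585) without WT mice 1 and 4. Hspb1, a small heat shock protein, stood at 0.4656 to 2.404 CPM in KO mice and 0 to 0.267 CPM in WT mice. Hspd1, the mitochondrial chaperonin HSP60, stood at 106 to 163 CPM in KO mice and 76.2 to 83.3 CPM in WT mice 2, 3 and 5, but at 331 and 319 CPM in WT mice 1 and 4. Hsph1, a nucleotide exchange factor for HSP70, averaged 240 ± 58.5 CPM in KO mice and 125 ± 20.4 CPM in WT mice 2, 3 and 5.

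The targets of ATF4, the factor of the response to amino acid shortage and unfolded protein, depended on which WT libraries were used. With all libraries, 2 of 28 tested members, or 7.14%, had all KO libraries above all WT libraries. Without WT mice 1 and 4 this held for 10 of 29, and the list median was 0.38, against 0.04 with them. Chac1, which degrades glutathione, passed the adjusted test without those mice. It stood at 8.56, 6.94, 9.76, 7.79 and 7.06 CPM in KO mice 1 to 5, against 4.13, 1.94, 2.23, 3.03 and 2.86 CPM in WT mice 1 to 5. The groups did not overlap, and the log2 difference was 1.78 (SE 0.24, adjusted p = 0.0310) without WT mice 1 and 4 and 1.49 (SE 0.27, adjusted p = 0.101) with them. Asns, asparagine synthetase, stood at 23.3, 6.46, 11.7, 11.6 and 21.9 CPM in KO mice 1 to 5, against 26.4, 3.32, 4.15, 33.0 and 4.46 CPM in WT mice 1 to 5. WT mice 1 and 4 exceeded every KO library, and the log2 difference was 0.07 with all libraries and 1.93 (SE 0.41, adjusted p = 0.0836) without them. Nupr1, a stress-induced chromatin protein, stood at 0.520 to 5.29 CPM in KO mice and 0.267 to 1.07 CPM in WT mice, so the groups overlapped.

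Genes of arginine and polyamine metabolism did not stand apart from the background. Of 28 tested members, 1, or 3.57%, had all KO libraries above all WT libraries and 0 below. At an unadjusted p under 0.05, 2 were higher and 4 lower with all libraries, and 4 higher and 1 lower without WT mice 1 and 4. None passed the adjusted test by edgeR. Ass1, argininosuccinate synthetase, which rebuilds arginine from citrulline, stood at 9.75 to 16.6 CPM in KO mice and 6.11 to 15.1 CPM in WT mice. Gatm, which uses arginine for creatine synthesis, stood at 1.69 to 7.84 CPM in KO mice, 0 to 1.03 CPM in WT mice 2, 3 and 5, and 5.71 and 6.88 CPM in WT mice 1 and 4. Slc1a4, a transporter of neutral amino acids, stood at 3.96 to 6.11 CPM in KO mice and 2.39 to 3.30 CPM in WT mice 2, 3 and 5, and at 12.1 and 7.36 CPM in WT mice 1 and 4.

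The lists of glycolysis, oxidative phosphorylation and sterol synthesis had median log2 differences of -0.37, -0.40 and -0.66 with all libraries, and of 0.05, -0.03 and 0.03 without WT mice 1 and 4. Hk2, the inducible hexokinase, stood at 8.32 to 17.5 CPM in KO mice and 3.84 to 5.56 CPM in WT mice 2, 3 and 5, and at 34.7 and 24.6 CPM in WT mice 1 and 4. Its log2 difference was -0.43 with all libraries and 1.24 (SE 0.28, adjusted p = 0.0943) without those mice. The cell cycle lists turned in the same way. The 28 genes of G2 and mitosis had a median log2 difference of -3.56 with all libraries, all 28 lower in KO cells at an unadjusted p under 0.05, and a median of 0.91 without WT mice 1 and 4, with 8 higher and 0 lower. Of these 28 genes, 7, or 25%, then had all KO libraries above WT mice 2, 3 and 5, although the summed level was 321 to 375 CPM in KO mice 1 to 4, 813 CPM in KO mouse 5 and 313 to 320 CPM in those WT mice. The 8 immature thymocyte genes tested had medians of -3.20 with all libraries and -0.38 without those mice.

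**Figure D4:**
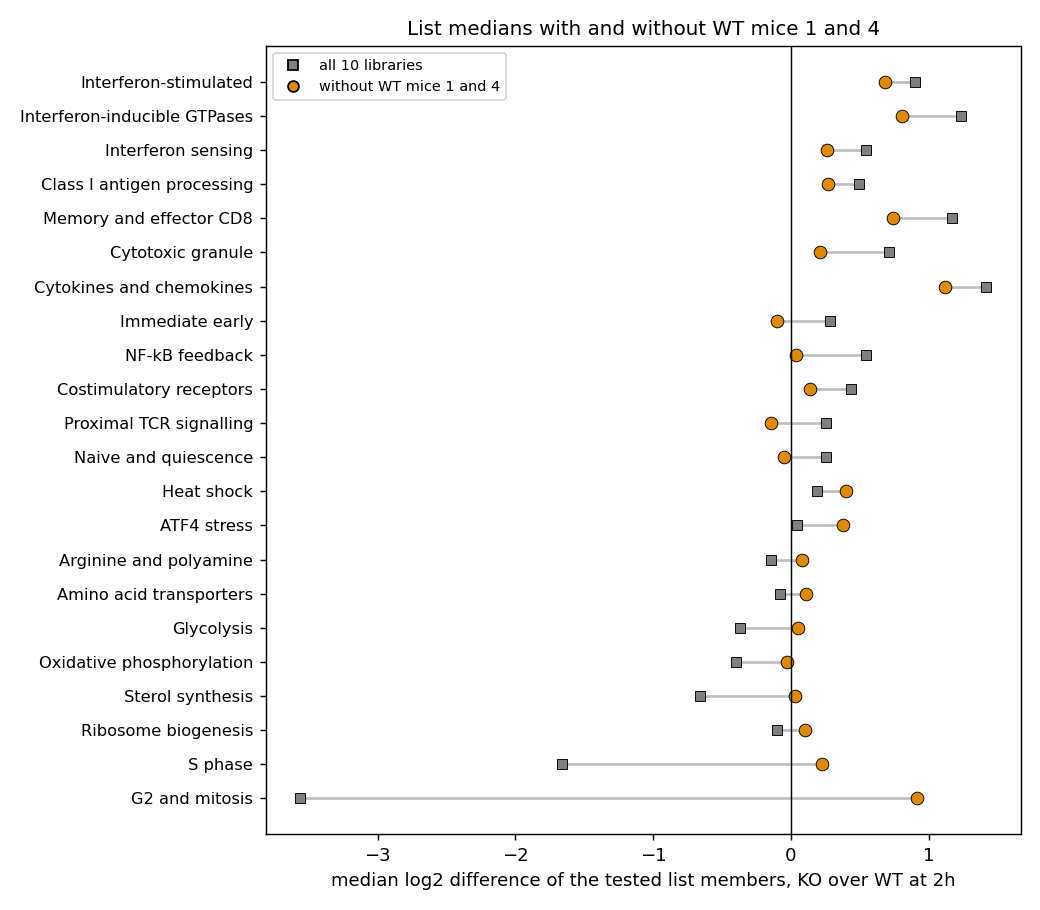
Median log2 difference, KO over WT at 2h, of the tested members of 22 gene lists, with all 10 libraries (grey squares) and without WT mice 1 and 4 (orange circles). The interferon, memory and cytokine lists stay above 0 in both, while the S phase list moves to 0.22 without those mice, against -1.66 with them, and the G2 and mitosis list to 0.91, against -3.56.

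**Figure D5:**
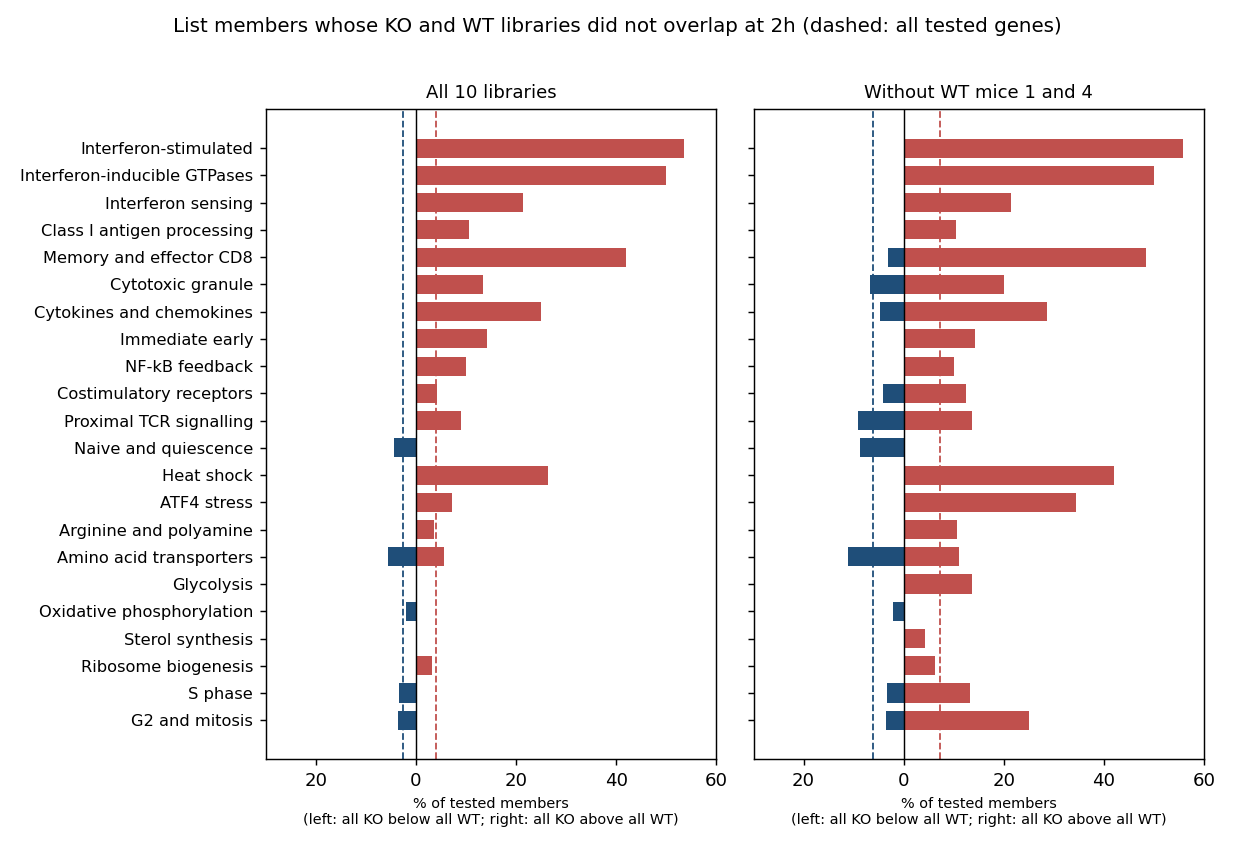
Share of the tested members of 22 gene lists whose 5 KO libraries all lay above (red, to the right) or all below (blue, to the left) the WT libraries, for all 10 libraries and without WT mice 1 and 4. Dashed lines mark the shares over all tested genes, 3.92% above and 2.49% below with all libraries, and 7.24% and 6.04% without WT mice 1 and 4. The interferon-stimulated list reaches 53.5% above with all libraries.

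The same mice were also sequenced at 0h, before activation, so the genotype difference at 2h could be set against that at 0h within mice. With mouse as a block, 1 of 12704 genes (0.00787%) differed in its genotype difference between the times, and without WT mice 1 and 4 none of 12715 did (0%). At an unadjusted p under 0.05 there were 1091 and 693 genes. DESeq2 was not run for this contrast, and without the replicate block edgeR called 0 genes with all mice and 1 without WT mice 1 and 4. The gene was Exo1, an exonuclease of mismatch repair and recombination. It stood at 1.90, 2.12, 2.98, 2.68 and 8.03 CPM in KO mice 1 to 5 and at 128, 2.87, 1.91, 109 and 2.67 CPM in WT mice 1 to 5 at 2h. At 0h it stood at 5.98, 7.003, 12.0, 14.2 and 27.9 CPM in the same KO mice and at 114, 3.15, 1.57, 96.5 and 3.79 CPM in the WT mice. Every KO mouse had a lower level at 2h than at 0h, whereas WT mice had like levels at both times. The difference of the log2 differences was -1.83 (SE 0.23, adjusted p = 0.0361) with all mice and -1.70 (adjusted p = 0.387) without WT mice 1 and 4. No gene was called when any of KO mice 1 to 4 or WT mice 1, 2 or 4 was left out. Without KO mouse 5, 1 gene was called, which was not Exo1 and had a positive difference. Exo1 was the 1 gene called without WT mouse 5, and it was among the 67 called without WT mouse 3.

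At 0h itself edgeR called 0 of 11967 genes with all libraries and 0 of 12194 without WT mice 1 and 4, with 1068 and 1481 genes at an unadjusted p under 0.05. The list medians at 0h without WT mice 1 and 4 were 0.35 for interferon-stimulated genes, 0.69 for the GTPases, 0.82 for memory and effector genes and 0.24 for heat shock genes, against 0.68, 0.81, 0.74 and 0.40 at 2h. With all libraries the medians of these lists were 0.84, 1.20, 0.66 and -0.11 at 0h, against 0.90, 1.24, 1.17 and 0.19 at 2h. The 2 times share their mice, and these values are given side by side without a test of the lists. Without WT mice 1 and 4 the common dispersion was 0.188 at 0h, against 0.0680 at 2h. WT mouse 3 at 0h stood far from WT mice 2 and 5 for some genes. It held 4456 CPM of Trbc1, against 711 and 775 CPM in those mice, and 766 CPM of Ifi27l2a, against 103 and 150 CPM. Gbp5 went the other way, and was lower in WT mouse 3, at 6.19 CPM, than in either of them. How far WT mouse 3 moved the medians at 0h was not tested. Ifi44 at 0h stood at 7.44 to 21.3 CPM in KO mice and 0.603 to 2.44 CPM in WT mice, so it did not overlap at that time either, and its difference of log2 differences was 0.13 (adjusted p = 0.976). Hspa1a at 0h stood at 64.6 to 295 CPM in KO mice and 3.33 to 58.4 CPM in WT mice. Hspa1b stood at 144 to 602 CPM and 8.33 to 95.4 CPM in these groups at 0h. The log2 differences of Hspa1a and Hspa1b at 0h, with all libraries, were 3.70 and 3.66, larger than at 2h. Their differences of log2 differences were -2.01 (adjusted p = 0.422) and -1.74 (adjusted p = 0.385). Ifit3 at 0h stood at 43.5 to 68.8 CPM in KO mice and 0.849 to 83.4 CPM in WT mice, which overlapped. The overlap came from WT mouse 3 alone, since the other WT mice stood at 0.849 to 32.9 CPM. The difference of log2 differences of Ifit3 was 0.95 (adjusted p = 0.688). Jun at 0h stood at 197 to 437 CPM in KO mice and 15.3 to 108 CPM in WT mice, a log2 difference of 2.33. Its difference of log2 differences was -0.77 (adjusted p = 0.607). Capn2 at 0h stood at 46.5 to 88.0 CPM in KO mice and 58.0 to 94.0 CPM in WT mice, with a log2 difference of -0.05, and the difference between the times was 1.17 (SE 0.23, adjusted p = 0.174). For other called genes the log2 difference at 0h with all libraries was 3.25 for Lilr4b, 2.67 for Igkv3-7 and 2.51 for Nt5e. It was 2.02 for H2-Q6, 1.99 for Ms4a4c, 1.95 for Chst11, 1.76 for H2-Q7, 1.67 for Map3k8, 1.47 for Arrdc4 and 1.44 for Cd44. It was 0.92 for Jaml, -1.09 for Wwp2, -0.96 for Pygm, -0.27 for Ttll3, -0.25 for Pde1b and -0.02 for Ermp1. Chac1 and Npc1l1 did not pass the filter at 0h with all libraries.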

How the data were processed

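Per the labels' protocols, libraries were made from total RNA with a stranded mRNA kit. Per the submitters' processing notes, CASAVA 1.8.2, STAR 2.4 and featureCounts 1.4.6 were used with mouse build GRCm38. The annotation release, strand setting and handling of reads with several matches are not given in the sources used here, so overlapping antisense genes cannot be told apart. The authors deposited raw counts per gene, with no normalization, for 21647 genes, and 21583 identifiers matched a GENCODE M21 symbol. The 50 columns were matched to labels by genotype, time and mouse. No pair of libraries was identical. Labels name the 5 mice of a group as separate animals.

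The 10 libraries of 2h were fitted alone in edgeR 4.0.16 under R 4.3.3 (filterByExpr with a minimum count of 10 and total of 15, TMM scaling, quasi-likelihood test, Benjamini-Hochberg adjustment, threshold 0.05), then the 8 without WT mice 1 and 4. The fit of 2h against 0h had mouse as a block. DESeq2 1.42.0 and limma 3.58.1 were alternatives. Fits were tested on simulated data. Members, lists and the rule for named genes (all called genes if 20 or fewer, up to 10 per direction called without WT mice 1 and 4, up to 5 genes of smallest p per list, and 5 genes named by earlier work) were chosen with earlier results of these data known. Genes called beyond that rule, with Cd8a, Thy1, Cd3e, Rag1, Rag2, Klf2 and Ccr7, were named after values were seen. Some genes are not reported here, and counts were not used to check which genotype a mouse had.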

Additional observations from a re-analysis of the deposited data

Results flagged for a closer look

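In groups of 5 libraries, 192 sets of values at 2h were checked for 1 library far from the others, and 17 were marked, where chance marks about 1 in 20. Of these, KO mouse 5 was the highest of its group for Chst11 at 74.2 CPM, Tnfsf8 at 103 CPM, Il3 at 15.1 CPM, Gatm at 7.84 CPM, Hk2 at 17.5 CPM and Exo1 at 8.03 CPM. It was also the highest for the summed levels of S phase genes at 2398 CPM, G2 and mitosis genes at 813 CPM and erythroid and platelet genes at 96.6 CPM. KO mouse 3 was the highest for Cd79a at 33.0 CPM and for dendritic cell genes at 631 CPM, and KO mouse 2 the lowest for B cell genes at 3211 CPM. KO mouse 4 had the most genes with a count, 16217. WT mouse 3 was the lowest of its group for the total count at 9571625, for genes with a count at 11811 and for Gbp5 at 19.1 CPM. WT mouse 4 was the highest for Igkv3-7 at 0.138 CPM. Exo1 differed between the times in its genotype difference, by -1.83 on the log2 scale.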

How the results depend on the processing

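For KO against WT with all 10 libraries, the calls were 2 in edgeR, and 1253 with DESeq2, 557 with limma-voom and quality weights, 1569 with all times in 1 model, 0 under the stricter filter of 5 CPM in 3 libraries and 0 with the replicate block. Leaving out 1 library gave 0 to 3. Without WT mice 1 and 4 the calls were 19, and 11 with library totals in place of TMM, 620 with DESeq2, 861 with limma-voom, 32 with no filter, 543 with all times in 1 model, 0 with the replicate block and 5 without WT mouse 3 as well, an alternative chosen after seeing the data. Leaving out 1 library gave 1 to 27. The replicate block without WT mice 1 and 4 kept only mouse numbers present in both genotypes, so KO mice 1 and 4 were left out too. For 2h minus 0h the 1 call became 0 with no replicate block, 7 with no filter and 0 to 67 leaving out 1 mouse. Without WT mice 1 and 4 the count of 0 became 1 with no replicate block and 0 to 1 leaving out 1 mouse. Library totals moved the median of all genes for 2h minus 0h to -0.20 with and without WT mice 1 and 4, against 0.03 with them and 0.07 without. The all-times model counts the libraries of 1 mouse as independent and has more residual degrees of freedom. The cause of the other moves was not tested.

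Across genotypes the mouse numbers were not treated as pairs in the main fits. Deviations of same-numbered libraries from their group means correlated by -0.32 to 0.07. These values cannot show whether same-numbered animals were handled together.

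Of 63 named genes checked in this way, 56 kept their direction in every alternative with all libraries and 62 without WT mice 1 and 4. Those that turned with all libraries were Asns (-0.067 with library totals and -0.16 to 0.64 leaving out 1 library), Gatm (-0.0015 with library totals and -0.55 to 0.75), Slc1a4 (0.95 with limma-voom, 0.17 with the replicate block and -0.28 to 0.39), Hk2 (1.02 with limma-voom, 0.16 with the replicate block and -0.67 to 0.19), Prf1 (-0.45 with limma-voom and -0.26 to 0.31), Id2 (0.66 with limma-voom) and Hspd1 (0.64 with limma-voom). Exo1 without WT mice 1 and 4 ran from -0.045 to 0.67 leaving out 1 library. The shallow library of WT mouse 3 limits genes of low count.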
